A study of Mus musculus with 6 samples.

Results

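The genes described here are the nuclear genes of the mitochondrial respiratory chain and ATP synthase in mouse cone photoreceptors with and without the clock gene Bmal1. They were chosen by symbol alone: every gene in the table named Nduf, Sdha to Sdhd (with the Sdhaf factors), Uqcr, Uqcc, Cyc1, Cycs, Cox4 to Cox8, Cox10 to Cox20, Atp5 or Atpif1. This gave 101 of the 9720 genes, of which 73 are subunits of complexes I to V, 1 is cytochrome c, and 27 are assembly factors or associated proteins. RNA was measured by poly(A) sequencing in 6 libraries of cones that were sorted by their green fluorescence from dissociated neural retina of adult C57BL/6 mice of mixed background. The 3 control libraries carried the genotype HRGPcre;Bmal1f/+;Z/EG and the 3 knockout libraries HRGPcre;Bmal1f/f;Z/EG. All animals therefore carried the Cre transgene, the Z/EG reporter that makes eGFP after recombination, and at least 1 floxed Bmal1 copy, and the cones of controls, which the series text calls wild type, keep a single intact Bmal1 allele once Cre has acted. In HRGPcre, Cre is driven by the promoter of the human red/green cone pigment gene. Age was labelled as postnatal day 60 to 80 and also as 2 to 6 months, light alternated with darkness every 12 h, and no hour of collection is given in the sources read. The labels do not say whether each library came from a separate animal, so the p-values rest on the spread among these 6 libraries alone, and that spread may be technical.

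The respiratory chain moves electrons from NADH through complex I, or from succinate through complex II, by coenzyme Q to complex III, and from there by cytochrome c to complex IV, where oxygen is reduced. Complexes I, III and IV pump protons, and complex V, the ATP synthase, uses the gradient to make ATP. Most subunits are encoded in the nucleus and a few core ones in the mitochondrial genome, and dedicated assembly factors insert the cofactors and join the modules. In cones these complexes fill the mitochondria packed into the inner segment, which supply the ATP for ion pumping and transmitter release.

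The values were FPKM, fragments per kilobase with each library's size taken into account. The annotation behind the gene lengths is not known, so comparisons of level between genes are approximate. The sums over the table ranged from 84995 to 128773 FPKM, and the depth of each library is unknown. The 10 cone marker genes were all tested and abundant, with sums of 4108 to 6923 FPKM, lowest in control 1 and highest in control 2. The 15 rod marker genes summed to 2823 to 4167 FPKM, which overlapped between groups, so rod RNA was present in every library. Müller glia markers summed to 89.8 to 117 FPKM and bipolar markers to 45.1 to 65.3 FPKM. Amacrine and ganglion cell markers summed to 28.5 FPKM in control 1 and to 6.36 to 11.3 FPKM in the others. Of the sum in control 1, 21.1 FPKM came from Stmn2, which measured 0.1 to 0.668 FPKM in the other libraries. Among the controls, Slc6a9 and Nefl were lowest in control 1 and Rbpms was highest there. No marker passed the test, but some had groups that did not overlap: Opn1sw of the cone list and 2 rod markers were higher in knockout, and Apoe and Clu of the Müller glia list and Gng13 of the bipolar list were lower. Over all tested genes, 9.39% had groups that did not overlap. The single endothelium and pigment epithelium marker in the table, under the filter, measured 0.664, 0.593 and 0.812 FPKM in the controls and at least 1.23 FPKM in every knockout library. The part of these markers in the differences of respiratory genes was not tested. The microglia markers on the list were not in the table. Bmal1, listed as Arntl, measured 2.9998, 2.60 and 3.27 FPKM in the controls and 3.37, 2.28 and 3.48 FPKM in the knockouts, and the value covers the whole gene, so it does not check the genotype labels. The genes encoded by the mitochondrial genome were not analysed here.

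Respiratory chain genes were abundant in sorted cones. Their median level over the 6 libraries was 19.6 FPKM, against 3.79 FPKM for all genes in the table, and 87 of the 101 lay above that table median. 71 genes were above 10 FPKM and 4 above 100 FPKM. The median subunit gene measured 45.3 FPKM in complex V, 34.8 FPKM in complex IV, 25.9 FPKM in complex III, 19.7 FPKM in complex I and 9.95 FPKM in complex II. The core subunit genes Cox4i1 and Atp5d were not analysed here, so medians and sums leave them out. The ranges overlapped widely, from 6.62 to 35.9 FPKM in complex II, 10.7 to 89.2 FPKM in complex III, 1.51 to 200.2 FPKM in complex IV and 3.30 to 807 FPKM in complex V. The genes of assembly factors had lower medians, in ranges that overlapped those of the subunits, of 7.05 FPKM for complex I, 1.84 FPKM for complex II, 4.21 FPKM for complex III and 5.29 FPKM for complex IV. No member stood at the floor of 0.1 FPKM in any library.

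**Figure D1:**
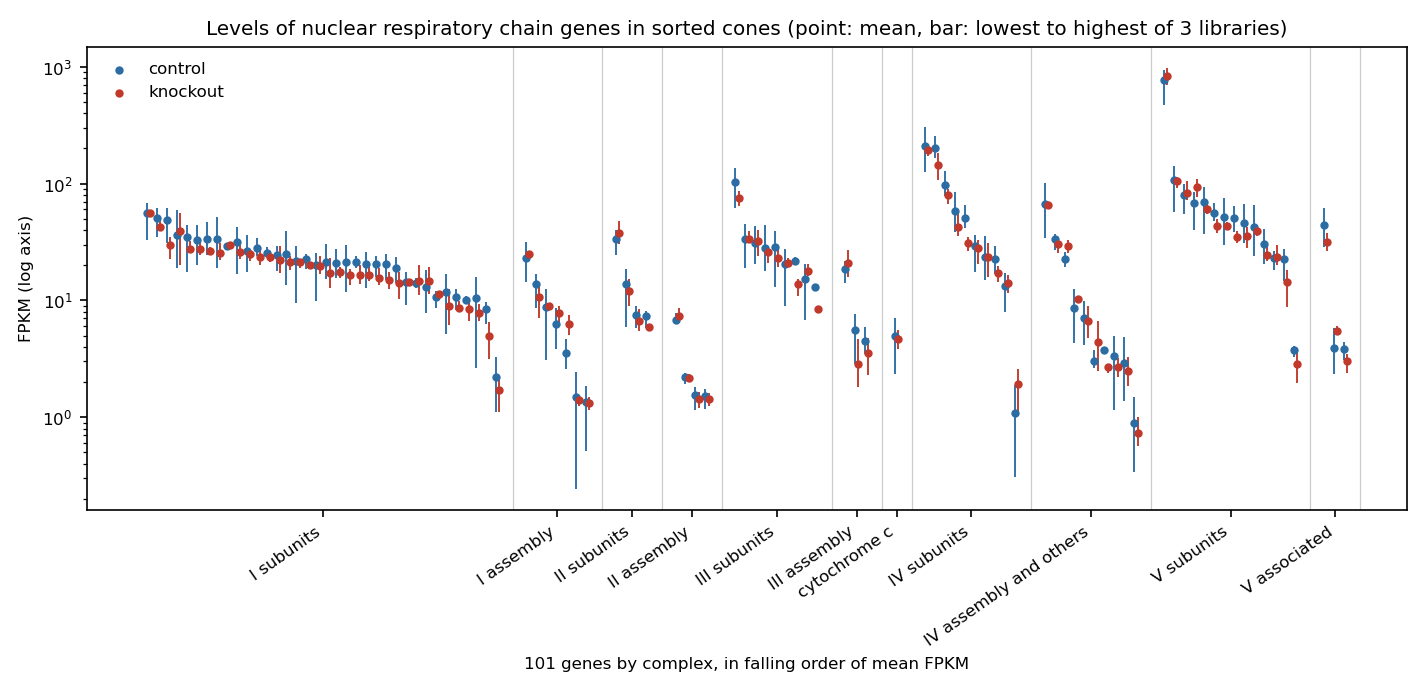
Mean FPKM (points, log axis) and lowest to highest library (bars) of each of the 101 genes in 3 control and 3 knockout libraries, ordered within each complex by falling mean. Atp5b stands far above the other genes of complex V, and the medians of the assembly factor groups lie below those of the subunits, while their ranges overlap.

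The most abundant member was Atp5b, which encodes the catalytic beta subunit of ATP synthase. It measured 467, 917 and 936 FPKM in the controls and 844, 975 and 704 FPKM in the knockouts, and ranked 7 among all genes of the table. Control 1 was the lowest library and the groups overlapped. The alpha subunit, with which beta alternates in the catalytic ring in equal number, is encoded by Atp5a1, and its RNA measured 80.05 ± 22.9 FPKM in the controls and 83.7 ± 19.3 FPKM in the knockouts (mean ± SD, n = 3, as throughout). Within a library Atp5b was 7.96 to 13.6 times as high as Atp5a1, with a median of 9.43. The summed FPKM of the 14 complex V subunit genes therefore rested largely on Atp5b: control 2 read 1777 FPKM with it and 860 FPKM without it.

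The libraries differed in the level of the whole group before any comparison of genotypes. The summed FPKM of the 36 complex I subunit genes was 568 in control 1, 1088 in control 2, 897 in control 3, and 745, 714 and 740 in the knockout libraries. The control libraries thus lay on either side of the knockout libraries, and the sum was 851 ± 263 FPKM in the controls and 733 ± 16.3 FPKM in the knockouts. Control 1 was the lowest library and control 2 the highest for complexes I, III and V. In complex III the 9 subunit genes summed to 189, 387 and 307 FPKM in the controls and 251, 241 and 264 FPKM in the knockouts. In complex V the sums were 884, 1777 and 1615 FPKM in the controls and 1525, 1527 and 1282 FPKM in the knockouts. The complex IV sums were 507, 953 and 657 FPKM in the controls and 582, 498 and 642 FPKM in the knockouts, so control 1 and knockout 2 were the low libraries there. Complex II was the smallest sum, at 44.4, 70.2 and 72.6 FPKM in the controls and 73.7, 51.6 and 62.1 FPKM in the knockouts. From control 1 to control 2 the sums differed 1.91-fold in complex I, 1.58-fold in complex II, 2.05-fold in complex III, 1.88-fold in complex IV and 2.01-fold in complex V.

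This spread was shared by nearly all members and was smaller in the table as a whole. Of the 100 members tested, 91 (91.0%) were higher in control 2 than in control 1, against 59.8% of all tested genes, and the median difference between these libraries was 0.88 on the log2(FPKM + 1) scale, against 0.13. Scaling each library by median-ratio size factors left 85 of 100 members higher in control 2, with a median difference of 0.74 (all genes 50.2% and 0.00). Regressing out gene length and GC content left 77 of 100, with a median difference of 0.43 (all genes 50.7% and 0.01). The members had a short total length of annotated exons per gene, with a median of 1822 bp against 4714 bp for tested genes. Their GC content was similar, at 50.1% against 49.4%. Control 1 had the lowest mean correlation to the other libraries across genes (r = 0.90). As given above, it also had the lowest cone marker sum. Its amacrine and ganglion marker sum was the highest, mostly through Stmn2 alone. The part of these traits in this spread was not tested. In bulk RNA, fewer cells of a type and less RNA per cell cannot be told apart.

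**Figure D2:**
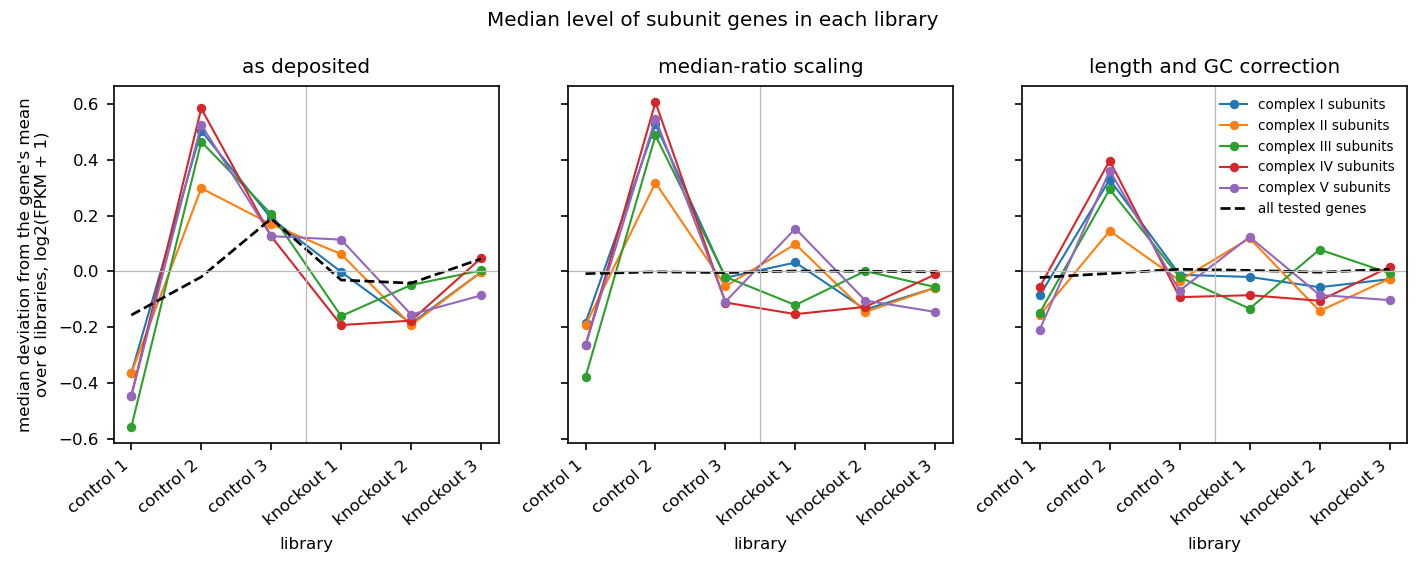
Median deviation of subunit genes from each gene's own mean over the 6 libraries, by complex (colours) and for all tested genes (dashed), on the log2(FPKM + 1) scale, as deposited, after median-ratio scaling and after correction for length and GC content. All subunits together lay at -0.44 in control 1 and 0.49 in control 2 as deposited, with the knockout libraries between -0.18 and -0.00.

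The comparison of knockout with control cones asks whether loss of the clock factor BMAL1 changed the RNA of the respiratory chain. Across 8627 tested genes, 9 passed an adjusted p of 0.05 in limma (0.104%), and none of the 100 tested members was among them. The lowest adjusted p of a member was 0.763, for Ndufaf6 and Uqcrc1 (limma). At an unadjusted p under 0.05 there were 7 members, 6 lower and 1 higher in knockout, against 5.49% of all tested genes in either direction and 3.96% lower, so these counts were near the background. The groups did not overlap for 5 members, against 9.39% of all tested genes, and 4 of these were lower in knockout, against 5.87% of all tested genes. The design did not resolve small changes, since the median half-width of the members' 95% intervals was 0.61 on the log2 scale.

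Of the 100 tested members, 63 had a negative and 37 a positive log2 difference, with a median of -0.11, against a median of -0.02 and 52.6% negative for all tested genes. The 73 subunit genes were negative for 50 and positive for 23, with a median of -0.17. The 26 tested assembly and associated genes were negative for 13 and positive for 13, with a median of 0.02. The split depended on which control library was in the comparison. Without control 1, 88 members were negative and their median was -0.35, and without control 2, 47 were negative and their median was 0.02. With median-ratio scaling and without control 2 it was 38. Without control 1, 29 members had an unadjusted p under 0.05, against 10.1% of all tested genes, and none passed after adjustment (lowest adjusted p = 0.188, limma; the range over all alternatives was 0.150 to 0.9998).

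**Figure D3:**
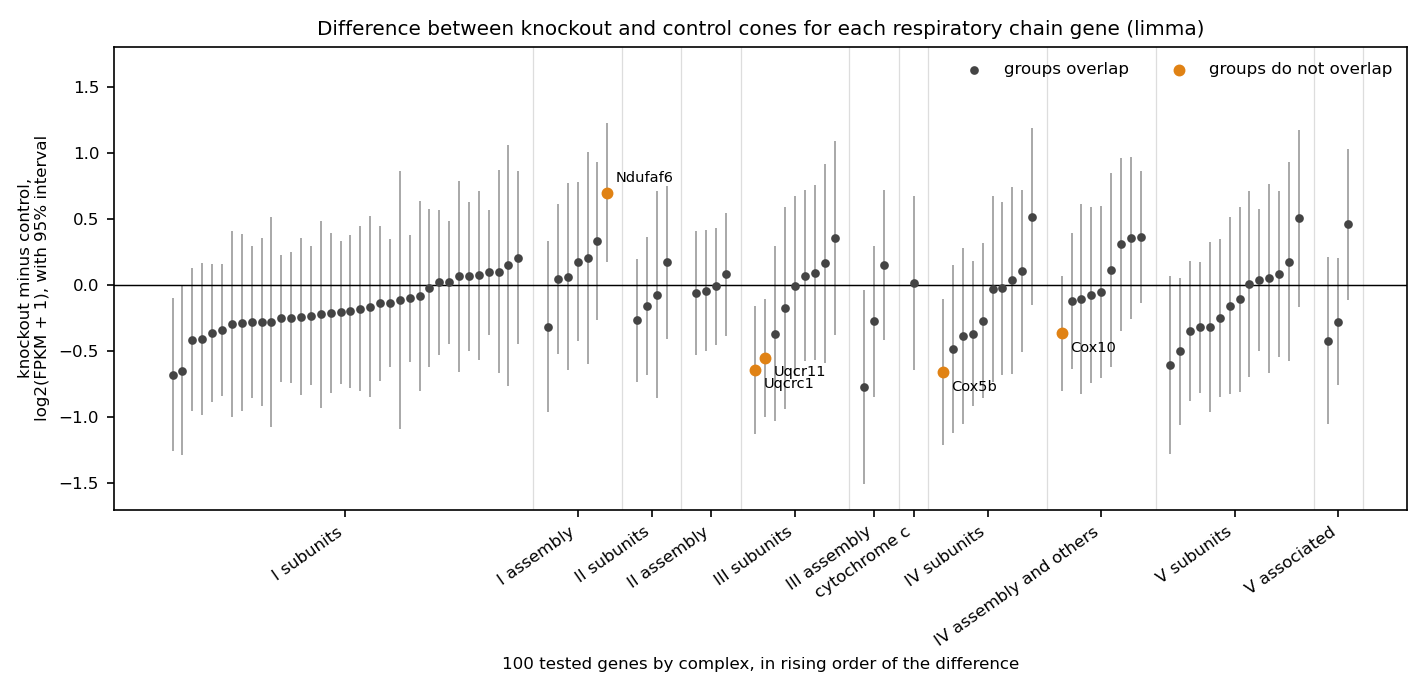
Log2 difference (knockout minus control) of each of the 100 tested genes with its 95% interval from limma, by complex, in rising order within each group. The 5 named genes have groups that do not overlap, and no gene passed after adjustment over all 8627 tested genes.

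Complex I, the NADH dehydrogenase, had 36 subunit genes tested, of which 27 were negative and 9 positive, from -0.68 to 0.21, with a median of -0.20. That median was -0.43 without control 1 and -0.01 without control 2. Among the core subunits, which include those that carry the flavin and the iron-sulfur clusters, Ndufs3 was the steadiest member, at 27.4, 29.2 and 30.9 FPKM in the controls and 31.3, 28.6 and 29.0 FPKM in the knockouts, a 1.14-fold range over all 6 libraries. Ndufv1, which binds NADH, measured 35.1 ± 15.1 and 27.8 ± 3.71 FPKM in control and knockout. Ndufs8, an iron-sulfur subunit, had the widest range of complex I subunits, 5.95-fold, from 2.66 FPKM in control 1 to 15.8 FPKM in control 2, with 6.64, 7.49 and 9.33 FPKM in the knockouts. Of other core subunits, close between groups were Ndufs7 at 25.5 ± 2.81 and 23.7 ± 2.44 FPKM, Ndufv2 at 14.3 ± 4.54 and 14.4 ± 0.456 FPKM, and Ndufs1 at 14.05 ± 1.48 and 14.7 ± 4.87 FPKM.

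The complex I subunits with the smallest p were accessory subunits of the membrane arm. Ndufb7 measured 6.32, 9.73 and 9.29 FPKM in the controls and 3.13, 5.33 and 6.52 FPKM in the knockouts, a log2 difference of -0.68 ± 0.27 (SE; adjusted p = 0.872, limma), which was -0.43 without knockout 1. Ndufb9 measured 30.9, 62.3 and 52.2 FPKM in the controls and 22.4, 32.3 and 34.7 FPKM in the knockouts, a log2 difference of -0.65 ± 0.29 (adjusted p = 0.897, limma). In both genes knockout 1 was the lowest library and control 2 the highest, and the groups overlapped because control 1 lay within the knockout range. Ndufa10, another accessory subunit, was among the most abundant complex I genes, at 50.5 ± 14.0 and 42.8 ± 5.50 FPKM. Ndufa11, which lies at the membrane arm where supercomplexes form, was the lowest subunit gene of complex I, at 2.21 ± 1.10 and 1.70 ± 0.528 FPKM.

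The 7 complex I assembly factor genes leaned the other way, with 6 positive and 1 negative and a median of 0.18, but this median was -0.24 without control 1 and 0.36 and 0.35 without controls 2 and 3. Ndufaf6, which acts early in building the membrane arm around a mitochondrially encoded subunit, was the only member whose knockout libraries all lay above the controls (gene ID ENSMUSG00000050323.14, chr4:11051045-11076205, minus strand, GRCm38). It measured 3.39, 4.70 and 2.58 FPKM in the controls and 6.46, 7.48 and 5.04 FPKM in the knockouts. The highest control and the lowest knockout library were close to each other. The means were 3.56 ± 1.07 and 6.33 ± 1.22 FPKM, 1.78-fold apart, and the log2 difference of 0.70 ± 0.24 did not pass (adjusted p = 0.763, limma). Over the 17 alternatives that tested Ndufaf6, its log2 difference lay between 0.54 and 0.89. Since its groups do not overlap, leaving out 1 library could not reverse the sign. Its mean lay under the stricter filter of 5 FPKM. Ndufaf5, which modifies a core subunit, was the most abundant factor, at 23.1 ± 8.66 and 25.1 ± 2.05 FPKM. Ndufaf3 and Ndufaf4, which work together on the same intermediate, measured 13.7 ± 4.48 and 10.7 ± 3.31 FPKM, and 6.22 ± 2.36 and 7.87 ± 1.64 FPKM. Ndufaf4 had overlapping groups and a log2 difference of 0.33 ± 0.27, which was 0.073 without control 1 and 0.56 without control 3. Ndufaf7 was the lowest factor, at 1.34 ± 0.717 and 1.32 ± 0.176 FPKM. Ndufaf1, named here for its spread after its values were seen, had the widest range of all members, 9.94-fold, from 0.245 FPKM in control 1 to 2.43 FPKM in control 3.

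Complex II, succinate dehydrogenase, also belongs to the tricarboxylic acid cycle and has nuclear subunits only. Its flavoprotein gene Sdha measured 24.6, 36.7 and 40.3 FPKM in the controls and 47.4, 30.7 and 35.9 FPKM in the knockouts. Sdhb, the iron-sulfur subunit, measured 8.12, 8.12 and 5.82 FPKM in the controls and 5.56, 6.08 and 5.99 FPKM in the knockouts, a log2 difference of -0.27 ± 0.22 (adjusted p = 0.960, limma), which was -0.41 without control 3 and -0.11 with the length and GC correction. Its control 3 lay within the knockout range, while the other controls lay above it. The membrane anchors Sdhc and Sdhd measured 7.48 ± 1.58 and 6.60 ± 1.62 FPKM, and 13.7 ± 6.82 and 12.0 ± 3.23 FPKM. The RNA of the flavoprotein thus stood above that of the other subunits in every library. Of the 4 subunit genes 3 were negative and 1 positive, with a median of -0.12, which was -0.26 without control 1 and turned positive when control 2, control 3 or knockout 2 was left out (0.040, 0.039 and 0.0016).

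The 4 genes of complex II assembly factors were low and steady, with differences from -0.06 to 0.08, and all their 95% intervals fell within -0.53 to 0.55. Sdhaf4, which binds the flavoprotein, was the highest at 6.86 ± 0.826 and 7.33 ± 1.05 FPKM. Sdhaf2, which helps attach the flavin, measured 2.21 ± 0.257 and 2.18 ± 0.135 FPKM. Sdhaf1 and Sdhaf3, which act on the iron-sulfur subunit, measured 1.52 ± 0.299 and 1.44 ± 0.178 FPKM, and 1.54 ± 0.341 and 1.42 ± 0.222 FPKM. The largest range of these genes over the 6 libraries was 1.56-fold, so they did not share the gap between control 1 and control 2. Exons of Sdhaf1 overlap those of E130208F15Rik on the opposite strand over 69.6% of their length, and nothing read here states whether counting used strand.

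Complex III, the cytochrome bc1 complex, had 9 subunit genes, 5 negative and 4 positive, with a median of -0.01. The median was -0.31 without control 1 and 0.33 without control 2. Among these genes were 2 whose knockout libraries all lay below the controls. Uqcrc1 encodes core protein 1 (ENSMUSG00000025651.14, chr9:108936630-108949620, plus strand). It measured 23.4, 21.7 and 20.2 FPKM in the controls and 11.0, 14.9 and 15.2 FPKM in the knockouts. Its controls were close together and control 1 was the highest of them, unlike in most members. The means were 21.7 ± 1.62 and 13.7 ± 2.35 FPKM, 1.59-fold apart, and limma gave a log2 difference of -0.64 ± 0.22 (95% interval -1.13 to -0.16; adjusted p = 0.763). Its partner Uqcrc2, core protein 2, read 9.02, 27.7 and 24.5 FPKM in the controls and 23.2, 20.1 and 19.2 FPKM in the knockouts, so the core proteins differed in pattern and the low library of Uqcrc2 was control 1.

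Uqcr11, a small subunit at the edge of the complex (ENSMUSG00000020163.12, chr10:80402997-80406830, minus strand), measured 12.9, 13.8 and 12.0 FPKM in the controls and 8.07, 8.34 and 9.04 FPKM in the knockouts. The spread within each group was small and the gap between the groups was wider than either. The means were 12.9 ± 0.877 and 8.48 ± 0.500 FPKM, 1.52-fold apart, with a log2 difference of -0.55 ± 0.21 (adjusted p = 0.821, limma). Over the 18 alternatives the log2 difference lay between -0.60 and -0.41 for Uqcr11 and between -0.72 and -0.48 for Uqcrc1. Since their groups do not overlap, leaving out 1 library could not reverse the sign. Of the catalytic subunits, Cyc1, cytochrome c1, measured 28.7 ± 13.8 and 23.2 ± 4.02 FPKM, and Uqcrfs1, the Rieske iron-sulfur protein, 15.1 ± 7.24 and 18.0 ± 2.37 FPKM. Uqcrh, the hinge protein that helps cytochrome c bind, was the most abundant at 62.0, 137 and 109 FPKM in the controls and 76.5, 64.7 and 85.8 FPKM in the knockouts. Uqcr10 followed at 33.4 ± 13.4 and 33.8 ± 4.55 FPKM. In each of these 4 genes control 1 was the lowest library.

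Of the 3 complex III assembly genes, Uqcc2 and Uqcc1 act together when cytochrome b is made. Uqcc2 measured 2.88, 7.72 and 6.12 FPKM in the controls and 2.02, 1.83 and 4.69 FPKM in the knockouts. Its log2 difference of -0.77 ± 0.34 was the lowest of all members (adjusted p = 0.897, limma), and the groups overlapped. Uqcc1 measured 4.45 ± 1.31 and 3.54 ± 1.23 FPKM, with a log2 difference of -0.28 ± 0.26, which was -0.063 without knockout 2, -0.088 without control 3 and -0.46 without knockout 3. Uqcc3 was the most abundant of them, at 18.5 ± 3.85 and 20.8 ± 5.83 FPKM. Cycs, cytochrome c, which carries electrons from complex III to complex IV, measured 2.33, 7.09 and 5.38 FPKM in the controls and 5.60, 4.54 and 3.84 FPKM in the knockouts. Its log2 difference was 0.01 ± 0.30 (adjusted p = 0.9996, limma) and was -0.35 without control 1. Cycs has 3 annotated pseudogenes that match its coding transcript at 95% identity or more over at least 200 bp, so reads may have been split among copies.

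Complex IV, cytochrome c oxidase, had 10 nuclear subunit genes among the members, 7 negative and 3 positive. Their median was -0.15, which was -0.38 without control 1 and 0.05 without control 2. Cox5b, a subunit on the matrix side (ENSMUSG00000061518.10, chr1:36691449-36693681, plus strand), measured 41.3, 65.8 and 44.4 FPKM in the controls and 34.8, 26.2 and 32.6 FPKM in the knockouts. All knockout libraries lay below the controls, and control 2 stood above the other controls. The means were 50.5 ± 13.4 and 31.2 ± 4.43 FPKM, 1.62-fold apart, and the log2 difference was -0.66 ± 0.25 (adjusted p = 0.861, limma). It lay between -0.89 and -0.42 over the 18 alternatives, and with separate groups leaving out 1 library could not reverse its sign. Cox5a, which encodes another subunit on the matrix side, measured 13.4 ± 4.80 and 14.0 ± 2.53 FPKM.

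The most abundant complex IV genes were Ndufa4 and Cox8a. Ndufa4, first assigned to complex I and now counted as a subunit of complex IV, measured 126, 304 and 196 FPKM in the controls and 208, 172 and 196 FPKM in the knockouts. Cox8a measured 165, 253 and 184 FPKM in the controls and 143, 107 and 182 FPKM in the knockouts. Knockout 3 overlapped the controls in Cox8a, and in Ndufa4 the control libraries enclosed the knockout libraries. Cox6a1 measured 97.2 ± 27.3 and 79.1 ± 11.7 FPKM and Cox7b 29.4 ± 10.2 and 28.0 ± 6.42 FPKM. The 10 genes of assembly factors and others included Cox11, a factor for copper insertion, which at 0.900 ± 0.573 and 0.727 ± 0.241 FPKM was below the filter and was not tested. Of the 9 tested, 5 were negative and 4 positive, with a median of -0.05, which ranged from -0.26 without control 1 to 0.20 without control 3 and also turned positive when knockout 1 or knockout 2 was left out (0.064 and 0.056).

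Cox10, which makes the precursor of heme A by adding the farnesyl tail to heme (ENSMUSG00000042148.8, chr11:63962627-64079468, minus strand), had groups that did not overlap. It measured 3.56, 3.77 and 3.84 FPKM in the controls and 2.40, 2.82 and 2.79 FPKM in the knockouts. Both groups were tight, at 3.73 ± 0.144 and 2.67 ± 0.235 FPKM, 1.40-fold apart, and the 95% interval of the log2 difference of -0.37 ± 0.20 reached from -0.80 to 0.07 (adjusted p = 0.909, limma). With the length and GC correction it was -0.22. Cox17, the copper chaperone of the complex, measured 33.3 ± 5.35 and 30.5 ± 4.68 FPKM. Cox16, a factor that helps mature a mitochondrially encoded subunit, measured 22.6 ± 3.52 and 29.3 ± 3.81 FPKM, a log2 difference of 0.36 ± 0.23 (adjusted p = 0.934, limma). The exons of Cox16 overlap those of the gene model Gm20498 on the same strand over 56.8% of their length, so its value is uncertain. The same holds for Cox20, whose exons lie to 91.0% opposite those of Hnrnpu.

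Complex V had 14 subunit genes among the members, 8 negative and 6 positive, from -0.60 to 0.50. Their median was -0.13, which was -0.40 without control 1 and 0.14 without control 2. In the rotor stalk, Atp5c1, the gamma subunit, measured 69.8 ± 29.1 and 60.5 ± 7.02 FPKM. Atp5e, the epsilon subunit, measured 38.2, 64.8 and 49.1 FPKM in the controls and 34.7, 30.8 and 39.0 FPKM in the knockouts, a log2 difference of -0.50 ± 0.25 (adjusted p = 0.897, limma), which was -0.31 without control 2. Only control 1 lay within its knockout range. In the outer stalk, Atp5o, which links the catalytic head to the membrane part, measured 30.2 ± 9.95 and 24.6 ± 4.93 FPKM. Among proteins associated with the enzyme, Atpif1, the inhibitor that stops it from running backward, measured 28.5, 62.0 and 42.0 FPKM in the controls and 37.6, 30.2 and 26.6 FPKM in the knockouts, a log2 difference of -0.42 ± 0.29 (adjusted p = 0.934, limma), which was -0.69 without control 1 and -0.15 without control 2. Atp5sl, placed here by its symbol although its product is known as a complex I assembly factor, measured 2.36, 3.58 and 5.81 FPKM in the controls and 5.17, 5.98 and 5.30 FPKM in the knockouts, a log2 difference of 0.46 ± 0.26, which was 0.21 without control 1 and 0.72 without control 3. Atp5s, a small factor that couples the enzyme, measured 3.87 ± 0.718 and 3.02 ± 0.552 FPKM.

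**Figure D4:**
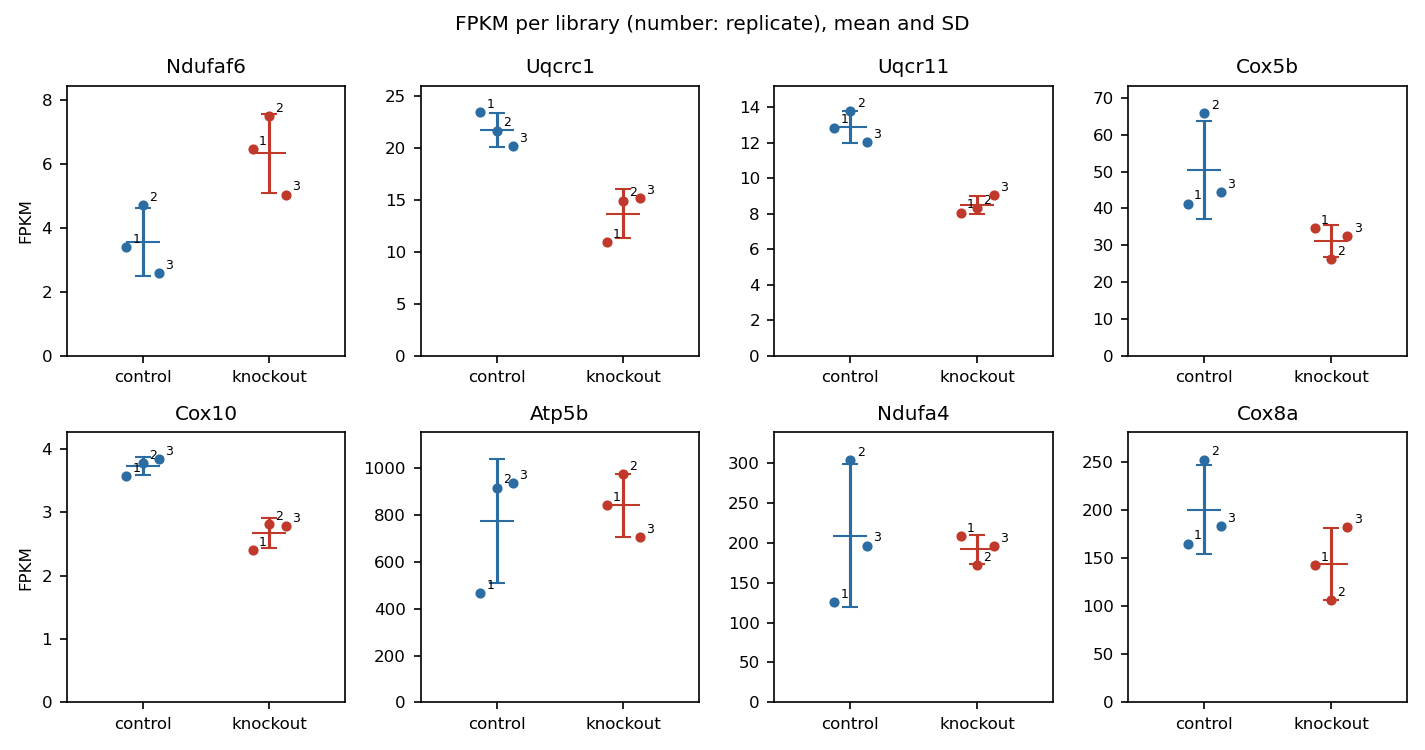
FPKM of 8 genes in each library (points numbered by replicate) with mean and SD per group: the 5 genes whose groups do not overlap and the 3 most abundant members. Uqcr11 and Cox10 have tight groups, whereas the control points of Atp5b, Ndufa4 and Cox8a span the range of the knockout points or overlap it.

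Several subunits are encoded by paralogous genes. A factor that scales all genes of a library alike cancels in shares within it, but control 1 stood apart in some shares as well. The c subunit of the ATP synthase ring has 3 genes that encode the same mature protein with different import sequences. Atp5g3 supplied most of this RNA, 79.6 ± 3.51% in control and 85.7 ± 4.87% in knockout. Atp5g1 supplied 19.1, 15.9 and 16.6% in control and 7.12, 14.7 and 14.1% in knockout. Atp5g2 supplied 3.25 ± 1.82% in control (5.36, 2.22 and 2.18%) and 2.35 ± 0.670% in knockout. The share of Atp5g1 was lower in each knockout library than in each control, with knockout 1 the lowest. Its level was 14.6, 27.6 and 25.1 FPKM in the controls and 8.85, 16.4 and 18.2 FPKM in the knockouts, a log2 difference of -0.60 ± 0.31 (adjusted p = 0.899, limma), which was -0.31 without knockout 1, and here the groups overlapped through control 1.

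In complex IV, Cox6b2, an isoform known from testis, supplied 2.02, 5.03 and 5.04% of the Cox6b RNA in control and 6.11, 8.32 and 7.65% in knockout, the rest being Cox6b1. Each knockout share lay above each control share. How often such shares separate for other paralogs was not measured, so no background stands beside these separations, here or for Atp5g1. Cox6b2 was low in all libraries, at 0.308, 1.87 and 1.10 FPKM in the controls and 1.04, 2.16 and 2.58 FPKM in the knockouts, so these shares rest on small values of unknown depth, and its log2 difference was 0.52 ± 0.31 (adjusted p = 0.929, limma). That difference was 0.21 without control 1 and 0.78 without control 2, and 0.95 with a pseudocount of 0.1 FPKM. Cox6b1 measured 23.6 ± 10.5 and 23.6 ± 7.59 FPKM. Cox7a2l, which joins complexes III and IV in supercomplexes, made up 67.2, 77.6 and 74.2% of the summed Cox7a2 and Cox7a2l RNA in control and 80.8, 79.8 and 77.6% in knockout. The groups of that share did not overlap but touched, with control 2 and knockout 3 both at 77.6%. Cox7a2 measured 22.7 ± 6.20 and 17.0 ± 2.63 FPKM and Cox7a2l 66.2 ± 33.2 and 65.4 ± 3.92 FPKM. The other isoform genes listed for this comparison, among them Cox4i1, Cox4i2, Cox6a2 and Cox7a1, were not analysed here.

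Other genes of the pathway were taken from lists outside the symbol rule. Of 34 further assembly factors 29 were tested, 16 negative and 13 positive with a median of -0.04, and none passed. Tmem126b, which takes part in complex I assembly, had groups that did not overlap, at 5.31 ± 1.01 and 3.79 ± 0.258 FPKM (adjusted p = 0.909, limma). Acad9, its partner in the same assembly complex, measured 12.1 ± 2.33 and 9.20 ± 0.723 FPKM. The most abundant of them was Usmg5, a small protein of the ATP synthase membrane part, at 52.0 ± 17.6 and 45.0 ± 5.06 FPKM. Of 13 coenzyme Q synthesis genes 10 were tested, 6 negative and 4 positive with a median of -0.15, and none passed. Coq9 measured 3.99 ± 1.35 and 2.78 ± 0.966 FPKM, Coq10a 3.83 ± 0.961 and 3.14 ± 0.729 FPKM, and Coq5, the most abundant, 11.0 ± 2.06 and 11.4 ± 1.62 FPKM. Of 15 genes that regulate respiratory genes 13 were tested, 9 positive and 4 negative with a median of 0.09, and none passed. The coactivator gene Ppargc1a was the highest, at 35.4 ± 17.0 and 35.2 ± 4.13 FPKM. Yy1 measured 2.90 ± 1.75 and 4.45 ± 0.710 FPKM (adjusted p = 0.909, limma) and Tfam, which encodes the mitochondrial DNA packaging factor, 0.824 ± 0.304 and 1.25 ± 0.429 FPKM.

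Because nuclear respiratory genes are known targets of the factors NRF1, GABP (an ETS factor), YY1 and the ERR receptors, and BMAL1 with its partner CLOCK binds E-boxes, the promoters of the members were searched for short words of each. RefSeq promoter windows of 300 bases, 250 before to 50 after the start site (GRCm38.p6), were found for 85 of the 101 members, giving 90 windows. The words were GCGCATGCG for NRF1, CCGGAAG for ETS/GABP, AAGATGGC for YY1, AAGGTCA for ERR and CACGTG for the E-box, each searched on both strands. The NRF1 word stood in 12.2% of the members' windows, against 4.15% of the windows of genes in the table and 1.75% of all windows. The ETS/GABP word stood in 28.9%, against 18.9% and 8.86%. For YY1 the shares were 13.3%, 5.11% and 2.75%, and for ERR 11.1%, 3.08% and 4.72%. The E-box word stood in 8.89%, against 10.2% and 7.15%, in 7 members: Atp5g1, Atp5g3, Atp5l, Atpif1, Ndufa7, Ndufv1 and Uqcc3. At least 1 of the NRF1, ETS/GABP and YY1 words stood in 46.7% of the members' windows, against 25.9% and 12.5%. These are descriptions of letters, not of binding, and windows of 1 gene can overlap.

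The 120 bases before the start site are shown for 2 genes whose groups did not overlap, for cytochrome c, for a gene with 2 different words and for the gene with an E-box nearest its start, 5′ to 3′ on the gene's strand with the words in capitals. They are Uqcr11 (chr10:80406822-80406941, minus strand) with the ETS/GABP word 66 bases before the start, Cox10 (chr11:64079473-64079592, minus strand) with the same word 27 bases before it, Cycs (chr6:50566570-50566689, minus strand) with the NRF1 word on the other strand at 61 bases, the downstream of the windows of Atp5j, which encodes a stalk subunit and was chosen for its sequence (chr16:84834977-84835096, minus strand), with the YY1 word at 88 and the ETS/GABP word at 61 bases, and Atp5g1 (chr11:96075632-96075751, minus strand) with the E-box at 44 bases.
Uqcr11: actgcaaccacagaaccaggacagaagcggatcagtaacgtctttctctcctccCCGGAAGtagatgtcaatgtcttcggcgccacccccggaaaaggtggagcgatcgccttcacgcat
Cox10: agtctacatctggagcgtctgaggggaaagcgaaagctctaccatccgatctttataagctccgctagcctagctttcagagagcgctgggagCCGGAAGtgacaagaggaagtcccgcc
Cycs: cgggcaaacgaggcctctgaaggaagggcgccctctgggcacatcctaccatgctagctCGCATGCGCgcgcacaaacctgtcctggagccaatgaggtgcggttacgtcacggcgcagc
Atp5j: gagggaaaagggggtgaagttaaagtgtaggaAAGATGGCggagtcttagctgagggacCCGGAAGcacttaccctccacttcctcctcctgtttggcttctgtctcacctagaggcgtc
Atp5g1: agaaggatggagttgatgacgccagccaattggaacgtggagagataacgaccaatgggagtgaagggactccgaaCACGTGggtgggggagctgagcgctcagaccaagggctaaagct

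Uqcr11 also has an NRF1 word that spans its start site, at -5, and Uqcrc1 has one 30 bases after its start. Cox10 carries a YY1 word 21 bases after its start as well. The ETS/GABP word was not shared by the other genes with separate groups. Uqcrc1 has none, and no word of any kind was found for Ndufaf6 or Cox5b, which may lack a window. The genes with the E-box word did not share a direction: Atp5g1 and Atpif1 had negative differences, while Uqcc3 measured higher on average in knockout. No tested difference of an E-box gene passed the adjusted threshold.

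Gene structure limits some of these values. Near-identical pseudogene copies were annotated for 20 of the 101 members (19.8%), against 9.70% of all genes searched, with 8 copies for Atp5l, 4 for Atp5h and 3 each for Uqcrb and Cycs. Ndufs3, Cox7b, Cox7a2l, Atp5c1, Atp5o and Atp5g1 also have at least 1 such copy. None of the 5 genes with separate groups has one, and the exon overlap of Cox10 with its antisense neighbour covers 1.61% of its exons. Exons of Ndufaf2 lie to 65.7% opposite a non-coding gene and those of Atpif1 to 33.7% opposite an antisense model.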

How the data were processed

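RNA of 6 sorted cone libraries was measured, 3 per genotype. The authors deposited FPKM values in 1 table. Cufflinks 2.2.1, TopHat2 2.1.0, DESeq2, HTSeq and the build mm10 are listed in the submitters' processing notes with no roles, and the tool that gave the FPKM, its annotation and its use of strand are not given in those sources. Members and lists were chosen with earlier results of these data known.

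Gene IDs were matched to GENCODE vM21 (9702 of 9720, all 101 members). The 8627 genes whose mean reached 1 FPKM were tested on the log2(FPKM + 1) scale, and 1093 were not. Knockout was compared with control by limma 3.58.1 in R 4.3.3 (variance trend, two-sided test), and p-values were adjusted by Benjamini-Hochberg across these genes with a threshold of 0.05. Log2 differences are on that scale and understate changes of low genes. The fit was tested on simulated data. Depth is unknown, so no counting interval is given. Named members are, per complex, the 2 most abundant and the lowest, the 2 of smallest p, core subunits, isoform pairs and genes with separate groups; from other lists, the 2 of smallest p and the most abundant. The values of 1 gene that this rule takes are not reported here. Pseudogene copies were found with blastn 2.17.0 (95% identity, 200 bp). Figures were drawn with matplotlib 3.10.9, and tables were made with pandas 2.3.3 and numpy 2.4.6 under Python 3.11.15. Alternatives were a pseudocount of 0.1, no filter or one at 5 FPKM, median-ratio scaling, quantile normalization, no variance trend, array weights, a length and GC correction, a replicate block and each library left out. Median-ratio scaling combined with leaving out control 1 or 2, and the count of negative members, were added after seeing the data.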

Additional observations from a re-analysis of the deposited data

How the results depend on the processing

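No member passed after adjustment under any of the 18 alternatives (limma), and the lowest adjusted p was 0.150 with array weights. Over all genes 9 passed, 23 with array weights, 4 with the length and GC correction in a replicate block, and 6 to 13 with 1 library left out. The same-numbered libraries did not deviate together (r = -0.118, -0.085 and -0.034), and the other pairs had r from -0.040 to 0.097. With 3 libraries per group this check cannot tell whether a shared number marks a batch. With a replicate block 6 genes and no member passed. The count of negative members, 63, ranged from 47 to 88 with 1 library left out and was 38 with median-ratio scaling without control 2. The median of complex III subunits ranged from -0.31 to 0.33 with 1 library left out and was 0.37 with median-ratio scaling without control 2. The median of complex II assembly genes was 0.081 at 5 FPKM, 0.036 with quantile normalization and 0.078 with median-ratio scaling without control 1, and that of complex III assembly genes was 0.15 at 5 FPKM, where fewer genes were tested. With 1 library left out, Sdhaf4 (0.08) ranged from -0.020 to 0.17, Sdhaf3 (-0.06) from -0.18 to 0.012, and Cycs (0.01) from -0.35 to 0.29. With median-ratio scaling without control 1, Sdhaf3 was 0.073 and Cycs -0.26. Cycs was also -0.32 with array weights and -0.068 with the length and GC correction, with or without the replicate block, and had no value at 5 FPKM. In all, 61 of the 100 tested members changed sign in at least 1 alternative. Where values do not show it, the cause was not tested.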
